A study of Mus musculus with 72 samples.

Results

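Bmp10, Shox2, Tbx3, Tbx18 and Isl1 are factors that mark the side of the atria and the sinus node, the pacemaker of the heart. They were taken by name from a table of 24237 mouse genes, in which each is 1 row, and all 5 were present. The table holds RNA-seq read counts of hearts cut into right atrium, left atrium and ventricles, in 72 libraries. The labels give the cell type as cardiomyocytes, while the methods describe whole microdissected tissue. The groups were naive Ahr+/+ mice, all animals being C57BL/6J, Ahr-/- mice, bred from Ahr-/- parents and without the aryl hydrocarbon receptor in any cell type, and Ahr+/+ mice whose dams received the receptor's ligand TCDD (dioxin) by gavage on 3 days of gestation, at 0.1 μg/kg (low dose, 100 in the labels) or 1 μg/kg (high dose, 1000 in the labels). By the methods, Ahr+/+ dams not given TCDD received corn oil, the vehicle, by gavage, while Ahr-/- dams were left untreated. In the Ahr-/- contrasts, gavage and the genotype of the dam thus cannot be told apart from that of the offspring. The labels and the study's methods name different days of gavage. Each combination of exposure, sex and compartment had 3 libraries, which makes 24 groups. Hearts were collected at 9 months of age by the labels and at about 10 months by the methods. The methods describe 3 mice for each sex and condition. Compartments can then share mice, but the labels pair no libraries, and p-values measure the spread between these libraries.

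BMP10 is a secreted growth factor of the BMP family made by atrial myocytes, and in the adult mouse heart its transcript is known as a marker of the right atrium. It signals through the endothelial receptor ALK1 (Acvrl1) and its partners to the SMAD1 and SMAD5 proteins. SHOX2, TBX3, TBX18 and ISL1 are transcription factors of the sinus node, which lies where the superior caval vein enters the right atrium. TBX18 is needed to form the head of the node, SHOX2 keeps the working-myocardium factor NKX2-5 low there, TBX3 represses working-myocardium genes throughout the conduction system, and ISL1 marks pacemaker precursors. ISL1 is also made by autonomic neurons, TBX18 by epicardial and mural cells, and TBX3 by the ventricular conduction system. In bulk tissue, fewer cells of a type and less RNA per cell cannot be told apart.

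In GRCm38 (mm10), Bmp10 lies at chr6:87428994-87437677 (plus strand), Shox2 at chr3:66971727-66981771 (minus strand), Tbx3 at chr5:119670669-119684724 (plus strand), Tbx18 at chr9:87702800-87731260 (minus strand) and Isl1 at chr13:116298281-116309689 (minus strand), by the GENCODE annotation. Each gene has 1 value, so isoforms are not told apart. Reads were counted over the coding region of each gene. In GENCODE, 515 of 1839 coding bases of Tbx18 lie in exons of D030062O11Rik on the opposite strand and 153 of 993 of Shox2 in exons of Rsrc1. Whether counting used strand is not given in the sources used here, so the origin of reads there is uncertain. The 250 bases before the RefSeq start site are shown for Bmp10 and Shox2, the members that differed between both atria and the ventricle under the labels (GRCm38.p6, 5′ to 3′ on the gene's strand, chr6:87428744-87428993 and chr3:66981772-66982021). Capitals mark matches to a GATA motif (AGATAA) and to a TATA motif (TATAAA).
Bmp10: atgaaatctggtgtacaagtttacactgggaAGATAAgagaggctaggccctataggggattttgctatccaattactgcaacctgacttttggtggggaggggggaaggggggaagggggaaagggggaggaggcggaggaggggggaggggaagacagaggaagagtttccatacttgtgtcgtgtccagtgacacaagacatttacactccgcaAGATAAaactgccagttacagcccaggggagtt
Shox2: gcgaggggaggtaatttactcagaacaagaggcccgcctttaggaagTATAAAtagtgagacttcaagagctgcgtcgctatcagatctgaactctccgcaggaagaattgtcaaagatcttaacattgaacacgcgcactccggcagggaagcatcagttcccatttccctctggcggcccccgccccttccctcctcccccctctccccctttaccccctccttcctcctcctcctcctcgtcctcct
The Bmp10 window held AGATAA at 2 places, beginning 219 and 33 bases before the start. The Shox2 window held TATAAA once, beginning 203 bases before the start. On either strand, 9.99% of 32851 RefSeq promoter windows of the same length held AGATAA and 12.4% held TATAAA. Neither window held the T-box core GGTGTG or the NKX2-5 motif AAGTGG, which 16.3% and 14.1% of all windows held. A match is a description of letters only.

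Library totals lay between 11873417 and 28789382 counts with a median of 19231739. Levels are given as CPM, the usual scaling of a count by its library total. A count of 0 allows up to 3 counts, or 0.104 to 0.253 CPM by library, for counting error only. Ahr lay between 2 and 9.23 CPM in the 18 Ahr-/- libraries and between 8.59 and 30.8 CPM in the 18 naive libraries, lower in the former with a slight overlap. Several libraries went against their labels. Myl4, the atrial light chain, was under 100 CPM in 8 of 48 libraries labelled atrium (2 right, 6 left) and at or over 100 CPM in 7 of 24 labelled ventricle. Xist and 4 Y-linked genes went against the labelled sex in 8 libraries, all among those numbered 49 to 72 in their titles, where each group has 1 library. They were 4 labelled female right atrium (50, 56, 62 and 68) and 4 labelled male ventricle (53, 59, 65 and 71), the latter with Myl4 of 1378, 704, 1469 and 3533 CPM. Libraries 51, 57, 63 and 69 of the same series, labelled male left atrium, were among those of low Myl4 (3.9, 4.57, 2.21 and 3.16 CPM). In this series these mismatches fell in the same labelled sex and compartment in every exposure group. Their origin was not tested. The labels were kept throughout, and no library was moved. The labelled side of the atria is in doubt too, but here only by Bmp10. Bmp10 is itself a member, so its levels are no separate check of the side. Bmp10, the right-side marker, was under 50 CPM in 10 of 24 libraries labelled right atrium. Among these were 4 and 11, of low Myl4 (10.3 and 16.8 CPM), and 50, 56, 62 and 68, of discordant sex-linked genes. Bmp10 was over 50 CPM in 5 of 24 labelled left atrium (29, 31, 52, 58 and 64). Whether sides were exchanged in some libraries was not tested, so each difference between right and left atrium is one between libraries so labelled.

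Bmp10 was high in most libraries labelled right atrium, at or near 0 in most labelled ventricle, and split into high and low libraries in both atria, with none between 16.6 and 61.9 CPM. In naive mice, right atrium held 2276, 2.83 and 0.576 CPM in the female libraries 3, 4 and 50 and 1628, 4.51 and 737 CPM in the male libraries 1, 2 and 49. In Ahr-/- mice it held 447, 605 and 0.742 CPM in the female libraries 7, 8 and 56 and 1200.1, 1337 and 61.9 CPM in the male libraries 5, 6 and 55. After low-dose TCDD it held 0.767, 16.6 and 0.195 CPM in the female libraries 15, 16 and 68 and 1.45, 624 and 111 CPM in the male libraries 13, 14 and 67. Naive groups of both sexes and the Ahr-/- females each held high and low libraries, the lowest Ahr-/- male library stood at 61.9 CPM, and the low-dose females were all low. After high-dose TCDD it held 4.11, 1731 and 2.21 CPM in the female libraries 11, 12 and 62 and 1227, 1352 and 556 CPM in the male libraries 9, 10 and 61. The 12 male libraries were above 50 CPM except for 2 and 13, and the 12 female libraries reached that level only in 3, 7, 8 and 12. The 4 female libraries numbered 50, 56, 62 and 68, whose sex-linked genes were those of a male, lay between 0.195 and 2.21 CPM.

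In left atrium the pattern was turned around, with most libraries low. Naive mice held 0.568, 1.89 and 87.6 CPM in the female libraries 19, 20 and 52 and 0.397, 2.1 and 0.0464 CPM in the male libraries 17, 18 and 51. Ahr-/- mice held 1.23, 0.239 and 512 CPM in the female libraries 23, 24 and 58 and 0.202, 0.493 and 0.106 CPM in the male libraries 21, 22 and 57. Low-dose mice held 690.0, 1.88 and 0.586 CPM in the female libraries 31, 32 and 70 and 2049, 9.07 and 0 CPM in the male libraries 29, 30 and 69. Up to here the high libraries were 52, 58, 31 and 29. High-dose mice held 4.25, 1.44 and 1134 CPM in the female libraries 27, 28 and 64 and 1.22, 12.4 and 0.552 CPM in the male libraries 25, 26 and 63. Library 64 was thus the other high one. In all, 14 of 24 libraries labelled right atrium, 5 of 24 labelled left atrium and 1 of 24 labelled ventricle reached 50 CPM. The ventricle library was 46 (low-dose male, 230.4 CPM, Myl4 675 CPM), and the next highest was 65 (28.6 CPM, Myl4 1469 CPM). The other 22 ventricle libraries lay between 0 and 1.82 CPM, 4 of them at 0. Among the 17 ventricle libraries with Myl4 under 100 CPM the highest Bmp10 level was 1.04 CPM.

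**Figure D1:**
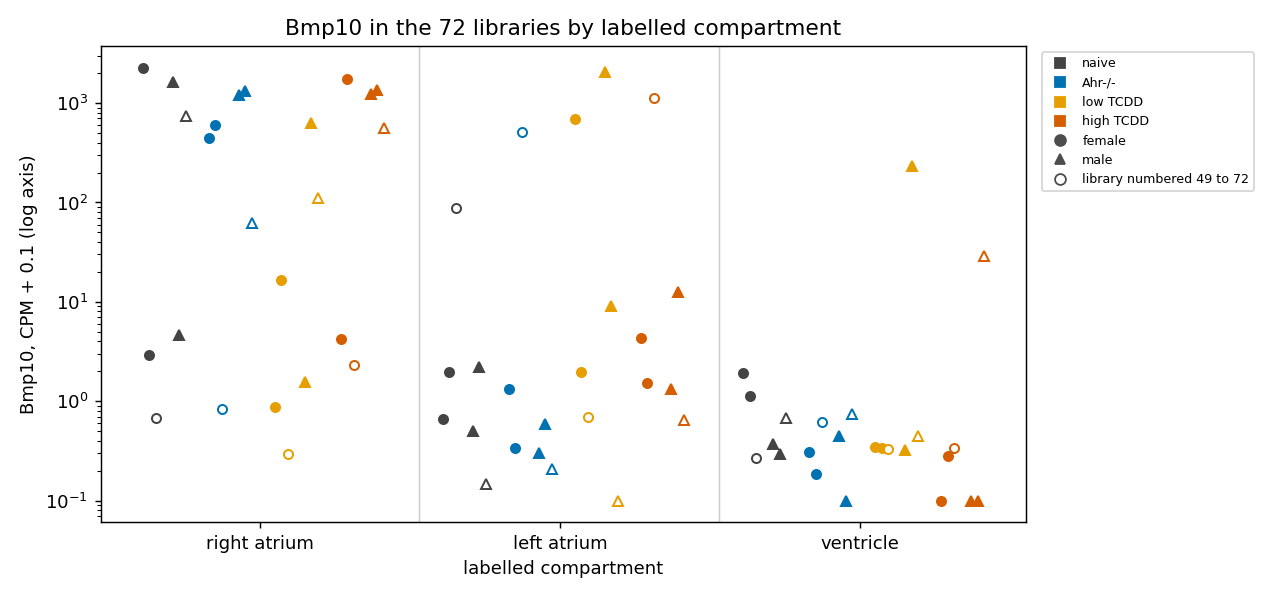
Bmp10 level (CPM + 0.1, log axis) in each of the 72 libraries, by labelled compartment, exposure (colour), sex (shape) and library number (open symbols, 49 to 72). In right atrium 14 of 24 libraries lay above 50 CPM and in left atrium 5 of 24, with the highest at 2276 and 2049 CPM.

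The compartment contrasts were fitted on all 72 libraries with edgeR's quasi-likelihood test, as the mean over the 4 exposure groups with sex as a covariate, and called at a Benjamini-Hochberg adjusted p under 0.05 over the 16056 genes tested, which included all 5 members. Bmp10 was higher in right atrium than in ventricle by 7.38 ± 1.3 (SE) on the log2 scale (edgeR adjusted p = 3.56e-05) and higher in left atrium than in ventricle by 5.51 ± 1.32 (adjusted p = 0.00345). Bmp10 and Shox2 were called in the first contrast and Bmp10, Shox2 and Isl1 in the second, all higher in the atrium. Beside these counts of 2 and 3 of 5, 31.5% of all genes tested were called between right atrium and ventricle (17.1% higher) and 19.2% between left atrium and ventricle (11.5% higher). Without the libraries that went against their labels the differences were 11.72 ± 1.69 for right and 8.99 ± 1.55 for left atrium (edgeR adjusted p = 3.31e-07 and 8.49e-06). In that set 49.6% and 47.6% of all genes were called. Libraries were removed partly by the level of an atrial gene, so wider differences follow in part from the removal. The set keeps all 5 left atrial libraries of high Bmp10. Without the atrial libraries of low Myl4 alone the left atrial value was 6.20 (edgeR adjusted p = 2.35e-04). The left atrial call was lost in libraries 1 to 48, which lack 3 of the 5 left atrial libraries of high Bmp10: it was 2.94 ± 1.4 there (adjusted p = 0.0885). Without library 58 alone the difference over all libraries went from 5.51 to 3.69 and was still called.

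Between the atria, Bmp10 was 1.87 ± 1.09 log2 units higher on the right over all 72 libraries and was not called (edgeR adjusted p = 1). No member was called in this contrast, 0 of 5 had an unadjusted p under 0.05, and DESeq2 called 0 with 1 under 0.05. Only 0.00623% of all genes were called, which is 1 gene, Kap, an androgen-regulated kidney protein named here after its value was seen. In the 48 libraries numbered 1 to 48, in which all sex-linked genes matched the labels, the Bmp10 difference was 6.43 ± 1.09 (adjusted p = 0.00725), and Bmp10 and Kap were the only genes called (0.0126%). The call was lost, with a similar size, when the 4 atrial libraries of low Myl4 were also left out (6.95 ± 1.33, adjusted p = 0.0871). In libraries 49 to 72 the sign turned (-0.59 ± 3.18). In the 53 libraries left after removing all whose Myl4 or sex-linked genes went against the label, it was 2.74 ± 1.14 (adjusted p = 1, with 0.00606% of genes called). This set was chosen after seeing the data. It still held libraries 29, 31, 52, 58 and 64, the left atrial ones of high Bmp10. Leaving out 1 library moved the value between 1.30 (without 3) and 3.71 (without 58).

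No member passed the test of whether its compartment pattern differed between exposures. The compartment-by-exposure interaction, 6 coefficients tested together in edgeR, gave an adjusted p of 1 for Bmp10, 0 of 5 members were called and 0 had an unadjusted p under 0.05, against 0.274% and 3.54% of all genes, and DESeq2 called 0 as well. The Bmp10 difference between right and left atrium was 5.22 ± 2.29 log2 units in naive mice, 2.35 ± 2.08 in Ahr-/- mice, 1.84 ± 2.04 after high-dose TCDD and -1.93 ± 1.98 after low-dose TCDD. The negative value of the low-dose group goes with libraries 29 and 31 (left, 2049 and 690 CPM). In right atrium, 4 of 6 of its libraries stood at 16.6 CPM or less. Against ventricle, the right atrial Bmp10 difference was 9.95 ± 2.89, 10.51 ± 2.99, 7.49 ± 2.53 and 1.56 ± 1.94 in the same order, and the low-dose ventricle group holds library 46.

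Shox2, which keeps NKX2-5 low in the node, was higher in both atria than in ventricle, with no difference called between the atria. Right atrium lay between 0.587 and 42.3 CPM with a median of 15.5 CPM, left atrium between 0 and 35.9 CPM with a median of 12.9 CPM and ventricle between 0 and 20.0 CPM with a median of 1.03 CPM. Naive right atrium held 8.73, 0.992 and 0.995 CPM in the female libraries 3, 4 and 50 and 17.9, 0.816 and 23.8 CPM in the male libraries 1, 2 and 49. Naive left atrium held 7.38, 1.57 and 18 CPM in the female libraries 19, 20 and 52 and 1.39, 17.9 and 0.65 CPM in the male libraries 17, 18 and 51. The naive atria each held libraries of 1.57 CPM or less beside libraries of 17.9 CPM or more. Ahr-/- right atrium held 42.3, 21.4 and 3.8 CPM in the female libraries 7, 8 and 56 and 8.35, 20.3 and 15.4 CPM in the male libraries 5, 6 and 55, with the highest Shox2 level of all 72 libraries in library 7. Ahr-/- left atrium held 2.54, 1.5 and 13.7 CPM in the female libraries 23, 24 and 58 and 28.1, 35.9 and 0.265 CPM in the male libraries 21, 22 and 57. The highest left atrial libraries were the Ahr-/- males 21 and 22. Low-dose right atrium held 23.4, 19.6 and 1.66 CPM in the female libraries 15, 16 and 68 and 16.6, 21.4 and 17.5 CPM in the male libraries 13, 14 and 67. Low-dose left atrium held 12.5, 2.33 and 18.8 CPM in the female libraries 31, 32 and 70 and 13.3, 14.3 and 0 CPM in the male libraries 29, 30 and 69. High-dose right atrium held 0.587, 15.5 and 8.81 CPM in the female libraries 11, 12 and 62 and 15.7, 1.16 and 0.925 CPM in the male libraries 9, 10 and 61. The low-dose males of right atrium were all high, while the high-dose groups of right atrium each held a low library. High-dose left atrium held 0.718, 17.2 and 20.3 CPM in the female libraries 27, 28 and 64 and 22.3, 21 and 0 CPM in the male libraries 25, 26 and 63. The ranges of right and left atrium overlapped over most of their span.

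The Shox2 difference was 2.12 ± 0.543 log2 units between right atrium and ventricle (edgeR adjusted p = 0.00231), 2.06 ± 0.543 between left atrium and ventricle (adjusted p = 0.00669) and 0.061 ± 0.503 between the atria (adjusted p = 1). Of the 24 ventricle libraries, 3 exceeded 10 CPM, namely 53, 59 and 65 at 18.1, 11.2 and 20.0 CPM, all of them libraries with atrial Myl4 and discordant sex-linked genes. The other 21 lay at 5.37 CPM or less. Without the libraries that went against their labels the differences grew to 3.76 ± 0.492 and 3.85 ± 0.492 (adjusted p = 3.96e-08 and 2.8e-08). In that set 49.6% and 47.6% of all genes were called, and the libraries were removed partly by the level of an atrial gene, so a wider distance between atrium and ventricle follows in part from the removal.

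Isl1 was the least abundant member by median in right atrium and ventricle and had no count in most ventricle libraries. It had 0 counts in 8 of 24 right atrial, 8 of 24 left atrial and 19 of 24 ventricle libraries, which allows up to 0.118 to 0.253 CPM by library. Levels ran between 0 and 5.51 CPM with a median of 0.308 CPM in right atrium and between 0 and 4.71 CPM with a median of 1.27 CPM in left atrium. The highest atrial libraries were 7 (Ahr-/- female right atrium, 5.51 CPM), 22 and 21 (Ahr-/- male left atrium, 4.71 and 4.5 CPM) and 15 (low-dose female right atrium, 3.39 CPM). In ventricle, 3 libraries exceeded 1 CPM, again 53, 59 and 65 (2.18, 2.3 and 5.37 CPM), and none of the 17 with Myl4 under 100 CPM exceeded 0.0684 CPM.

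On the log2 scale, Isl1 was 2.57 ± 0.808 higher in left atrium than in ventricle (edgeR adjusted p = 0.02) and 1.66 ± 0.831 in right atrium against ventricle (adjusted p = 0.119, not called). The latter was called without any 1 of libraries 53, 59 or 65, at up to 3.14 (adjusted p = 0.00652) without 65. In libraries 1 to 48 the values were 5.54 ± 1.12 for right and 6.17 ± 1.08 for left atrium (adjusted p = 1.57e-04 and 3.08e-05), where 47.2% and 42.8% of all genes were called. Without the libraries that went against their labels they were 6.35 ± 1.16 and 7.52 ± 1.16 (edgeR adjusted p = 2.78e-05 and 2.33e-06). In that set 49.6% and 47.6% of all genes were called. Its libraries were chosen partly by the level of an atrial gene, so a wider difference follows in part from the choice. The Isl1 differences from ventricle were smaller in naive libraries alone, at 0.49 ± 1.33 for right and 1.30 ± 1.31 for left atrium, neither called. Between the atria Isl1 was -0.91 ± 0.712, lower on the right and not called.

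Isl1 moved with markers of cardiac ganglion neurons, the autonomic nerve cells on the atrial wall. The summed level of 8 such genes (among them Dbh and Th of catecholamine synthesis, Chat of acetylcholine synthesis and the nicotinic receptor subunit Chrna3, with all 8 present in the table) ranged from 1.88 to 43.5 CPM in right atrium, 1.66 to 69.1 CPM in left atrium and 0.884 to 61.2 CPM in ventricle. Of the 23 libraries with a sum of at least 10 CPM, 18 had Isl1 at or over 1 CPM and 0 had no Isl1 count. Of the other 49, 3 had Isl1 at or over 1 CPM and 35 had no count, which were all 35 libraries at 0. The 3 ventricle libraries of high Isl1 had sums of 28.3, 31.4 and 61.2 CPM. Of the 8 genes, 0 were called in either atrium against ventricle, beside 31.5% and 19.2% of all genes. Their median log2 difference was -0.19 in right and 1.46 in left atrium. The sum mixed unlike genes. In libraries 5, 12 and 14 it was mostly Dbh (10.1, 8.52 and 7.36 CPM), with Isl1 at 0.136, 0.373 and 0.219 CPM. In libraries 7, 21 and 22, of high Isl1, Prph, another of the 8, stood at 21.4, 22.4 and 34.7 CPM. The part of neurons in the Isl1 differences was not tested.

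**Figure D2:**
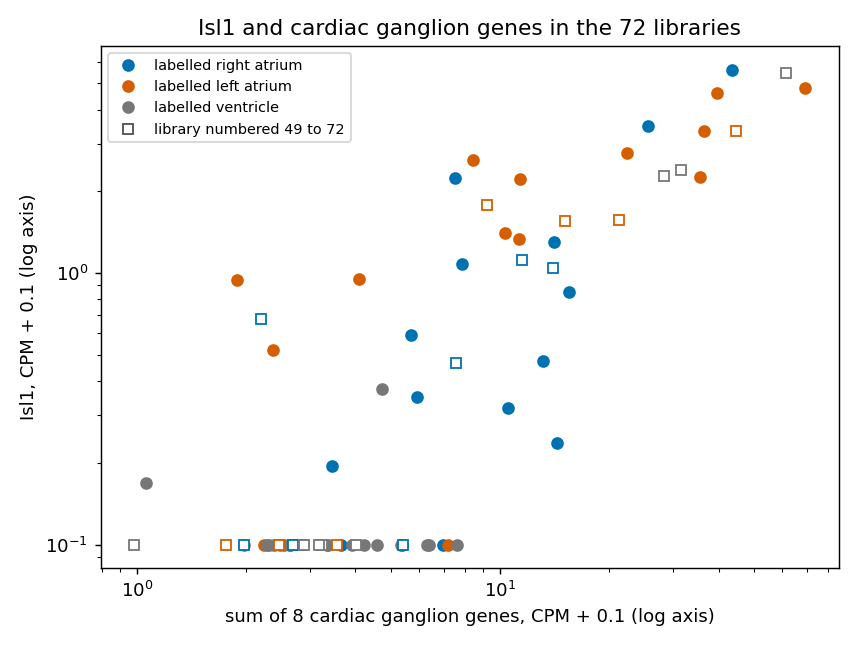
Isl1 (CPM + 0.1, log axis) against the summed level of 8 cardiac ganglion genes (CPM + 0.1, log axis) in the 72 libraries, coloured by labelled compartment, with open squares for libraries 49 to 72. The 35 libraries without an Isl1 count lie along the bottom edge, all with a ganglion sum under 10 CPM.

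Tbx3, which represses working-myocardium genes along the conduction system, was present in all 72 libraries, with no difference called between compartments. It lay between 7.6 and 67.8 CPM with a median of 29.3 CPM in right atrium, between 6.6 and 74.7 CPM with a median of 29 CPM in left atrium and between 9.24 and 57.7 CPM with a median of 24.2 CPM in ventricle. The log2 differences were 0.12 ± 0.183 (right atrium minus ventricle), 0.14 ± 0.183 (left atrium minus ventricle) and -0.023 ± 0.183 (right minus left), with edgeR adjusted p of 0.666, 0.628 and 1. Right atrial Tbx3 ran from 7.6 CPM in library 61 to 67.8 CPM in library 16, and ventricular Tbx3 from 9.24 to 57.7 CPM. Hcn4, the pacemaker channel, ranged from 0.524 to 28.9 CPM in right atrium, and was 0.68 ± 0.345 higher there than in ventricle on the log2 scale (adjusted p = 0.125).

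Tbx18, a factor of the node head that epicardial and mural cells also make, had the smallest ratio of highest to lowest level of the members. It lay between 4.05 and 21.2 CPM with a median of 10.0 CPM in right atrium, between 3.7 and 18.6 CPM with a median of 10.1 CPM in left atrium and between 3.87 and 15.4 CPM with a median of 6.89 CPM in ventricle. It was 0.30 ± 0.131 and 0.34 ± 0.131 log2 units higher in right and left atrium than in ventricle, which did not pass the threshold (edgeR adjusted p = 0.0755 and 0.0579). The highest ventricle levels were again in libraries 53, 59 and 65 (15.4, 13.7 and 12.5 CPM). Both differences were called with library size as the only scaling (0.48 and 0.50). They were also called without the libraries that went against their labels (0.49 ± 0.132 and 0.58 ± 0.13, edgeR adjusted p = 0.00187 and 2.74e-04). In that set 49.6% and 47.6% of all genes were called. Its libraries were chosen partly by the level of an atrial gene, so a wider difference follows in part from the choice. The summed level of 6 epicardial genes, which had medians of 143, 95.6 and 19.4 CPM in right atrium, left atrium and ventricle, was higher in the atria, with 6 of 6 genes called against ventricle in each atrium. The sum of 5 mural genes had medians of 546, 628 and 798 CPM, with 2 of 5 genes lower in the atria and 0 higher. Of all genes tested, 31.5% were called between right atrium and ventricle (17.1% higher) and 19.2% between left atrium and ventricle (11.5% higher). No gene of either list was at 0 in a whole compartment, and their part in the Tbx18 level was not tested.

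**Figure D3:**
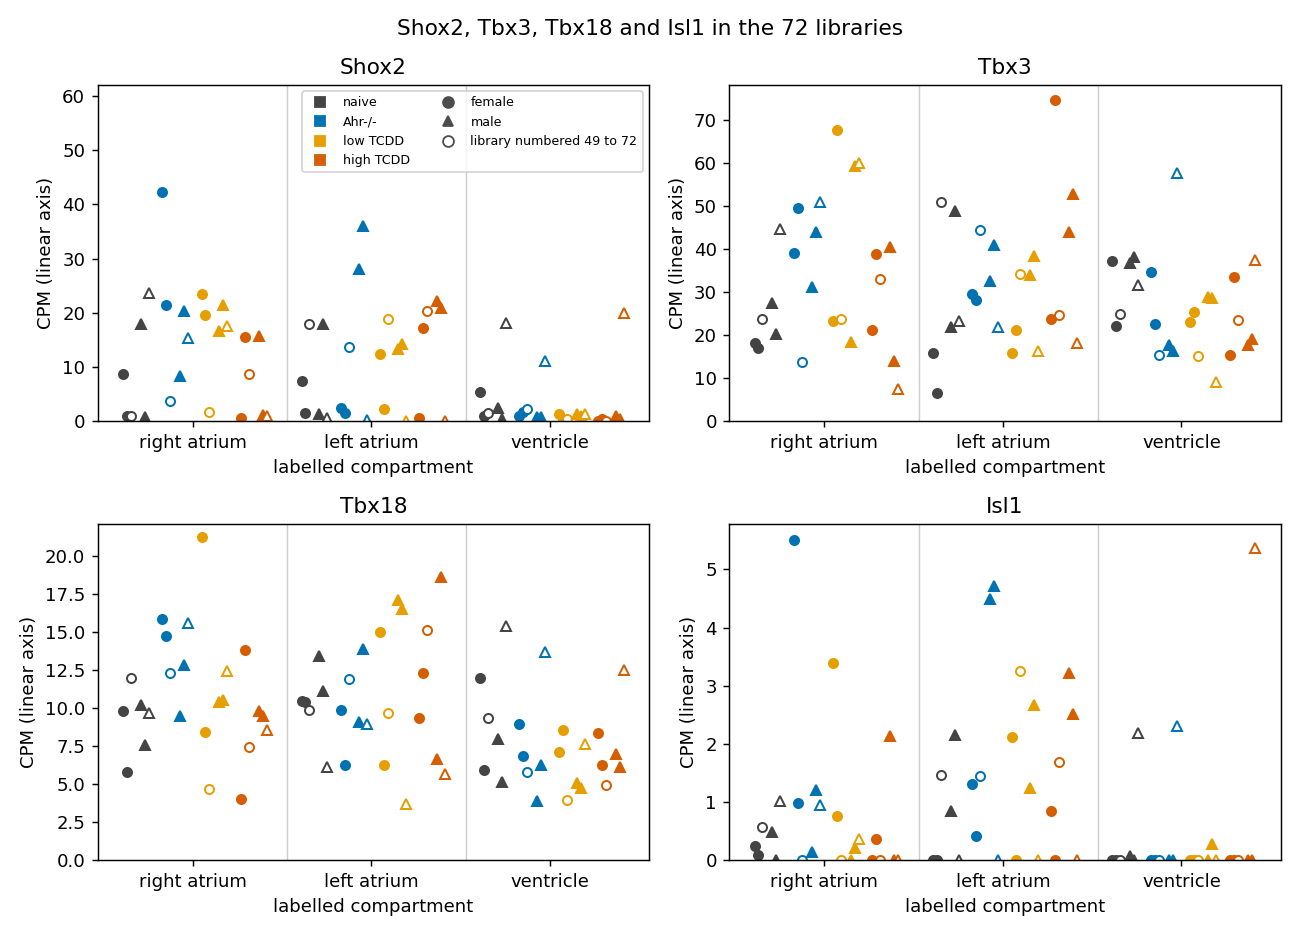
Shox2, Tbx3, Tbx18 and Isl1 levels (CPM, linear axes) in each of the 72 libraries by labelled compartment, exposure (colour), sex (shape) and library number (open symbols, 49 to 72). The 3 open triangles of Shox2 above 10 CPM in ventricle are libraries 53, 59 and 65, which also hold the 3 highest ventricular Isl1 levels.

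Per length of merged coding sequence, the counted feature, median levels ordered the members as Bmp10 (221 RPKM), Shox2 (15.6), Tbx3 (13.2), Tbx18 (5.44) and Isl1 (0.294) in right atrium. In left atrium the order was Tbx3 (13 RPKM), Shox2 (13), Tbx18 (5.5), Isl1 (1.21) and Bmp10 (1.06). In ventricle it was Tbx3 (10.9 RPKM), Tbx18 (3.75), Shox2 (1.04), Bmp10 (0.19) and Isl1 (0). Neighbours in each order overlapped in range over their 24 libraries and were not tested against each other. Over merged whole exons the values are lower, for example 62.2 RPKM for Bmp10 in right atrium, in the same order.

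Exposure was tested against naive libraries matched for sex and compartment, 3 against 3, in 18 separate edgeR fits, which asks whether loss of the receptor or TCDD in utero changed these factors in the adult. The 3 exposed groups of a sex and compartment share their naive libraries. Of 90 member tests, 75 passed the filter on low counts. Shox2, Tbx3 and Tbx18 were tested in all 18, Bmp10 in 11 and Isl1 in 10, and neither of the latter in ventricle. Bmp10 and Isl1 passed only where some group was high, so counts over their tests are no support for a direction. A single test passed the threshold. In the 12 atrial contrasts, the 3 of male ventricle and the 1 of low-dose female ventricle, 0% of all genes were called, in Ahr-/- female ventricle 0.0216%, which is 3 genes (Ahr, Mboat2 and Wdfy1, all named after their values were seen), and in high-dose female ventricle 23.7%. DESeq2 also called a single member test. Unadjusted p fell under 0.05 in 4 of the 75 member tests (5.33%), against 9.68% of all gene tests.

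The test that passed was Shox2 in high-dose female ventricle. Naive female ventricle held 5.37, 1.04 and 1.54 CPM of Shox2 in libraries 35, 36 and 54, and high-dose female ventricle held 0, 0.538 and 0.0961 CPM in libraries 43, 44 and 66. The groups did not overlap, and all 6 values were low. Over the 90 member contrasts, the exposed group lay wholly above naive in 2 and wholly below in 2, this one included. The share of such contrasts over all genes was not counted. Shox2 fell by 3.54 ± 0.928 on the log2 scale (edgeR adjusted p = 0.018), in a contrast in which 23.7% of genes were called and 36.5% had an unadjusted p under 0.05. Library 35 also held 193 CPM of Myl4, against 4.23, 3.14, 3.56, 2.51 and 22.1 CPM in the other 5. Without library 35 the value was -2.61 (adjusted p = 0.129), and without library 66 it was also not called. In males of the same dose and compartment Shox2 was -0.00067 ± 1.51 (adjusted p = 1), with naive library 53 at 18.1 CPM and high-dose library 65 at 20.0 CPM, and the difference between the sexes was not tested.

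The other 3 tests with an unadjusted p under 0.05 did not pass. Shox2 in low-dose female ventricle held 1.46, 0.3 and 0.5 CPM, a log2 difference of -1.61 ± 0.689 from the same naive libraries (edgeR adjusted p = 0.258, and -0.69 without naive library 35, with 17.8% of all genes under 0.05). Tbx3 in high-dose female right atrium held 21.2, 38.9 and 33.1 CPM against 18.2, 17.1 and 23.7 CPM in naive libraries, a difference of 0.69 ± 0.274 (adjusted p = 0.973, background 3.91%). These Tbx3 groups overlapped. Bmp10 in low-dose male left atrium held 2049, 9.07 and 0 CPM against 0.397, 2.1 and 0.0464 CPM, a difference of 9.52 ± 3.22 (adjusted p = 0.999, background 1.6%). Library 29 held nearly all of the difference, and without it the value was 2.38.

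The remaining 71 tests gave log2 differences of -6.94 to 3.49 for Bmp10, -2.30 to 2.61 for Shox2, -0.66 to 0.95 for Tbx3, -0.60 to 0.51 for Tbx18 and 0.34 to 2.63 for Isl1. Medians over the tests of each gene were 0.49, 0.20, 0.016, 0.04 and 1.04. Adjusted p from edgeR for all of these was 0.392 or more. All 10 Isl1 values were above 0, in atria whose naive libraries held 0 to 2.15 CPM, and they share those naive libraries. Isl1 was tested only where some group was high, so this count is no support for a direction. Which tests passed changed with the libraries used. Libraries 1 to 48 alone, 2 against 2, called Tbx3 in Ahr-/- female left atrium (1.54) and in high-dose male ventricle (-0.997), while Shox2 in high-dose female ventricle kept its size (-3.54 ± 1.21) and was not called (edgeR adjusted p = 0.0895). Without the libraries that went against their labels, the calls were the latter and Bmp10 in Ahr-/- female right atrium (-2.14 ± 0.404, edgeR adjusted p = 0.0358), which sets naive library 3 alone against 7 and 8 and assumes that the lone library varies like the others.

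**Figure D4:**
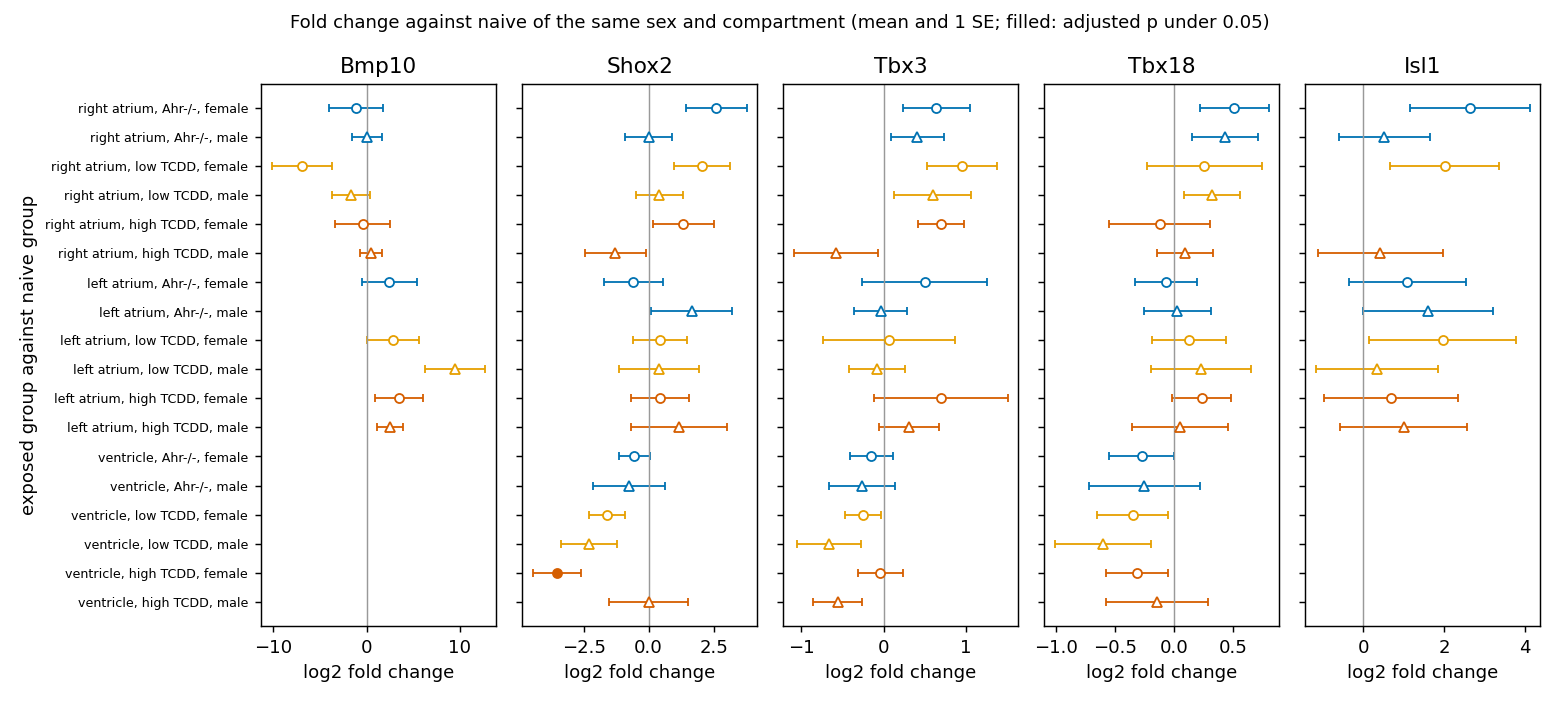
Log2 fold change of each member against naive libraries matched for sex and compartment in 18 contrasts, with bars of 1 SE. Filled symbols passed an adjusted p under 0.05, which is Shox2 in high-dose female ventricle alone, and contrasts without a symbol did not pass the filter on low counts.

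A list of 17 genes of the BMP10 pathway was tested beside it in the same edgeR fit. The list held receptor, SMAD and target genes, and also Gdf2 and Furin. Of the 17, 0 were called between the atria. In right atrium 8 were higher and 0 lower than in ventricle, and in left atrium 6 were higher and 0 lower. Of all genes tested, 17.1% were higher in right and 11.5% in left atrium. Their median log2 difference was 0.10 and 0.12 in the latter contrasts, against 0.03 and 0.022 over all genes tested. The strongest calls of right atrium over ventricle were Smad7 (0.89 ± 0.152, adjusted p = 2.18e-05) and Smad6 (1.26 ± 0.218, adjusted p = 2.59e-05), which are inhibitory SMADs and BMP target genes, and Tmem100 (0.78 ± 0.14, adjusted p = 4.15e-05), an endothelial target of ALK1 signalling. In left atrium they were Tmem100 (0.57 ± 0.14, adjusted p = 0.00388), Smad7 (0.58 ± 0.152, adjusted p = 0.00628) and the target Id2 (0.99 ± 0.268, adjusted p = 0.00795).

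In high-dose female ventricle, the contrast in which 23.7% of all genes were called, 7 of 16 tested genes of the BMP10 list were called, with 4 higher and 3 lower. The higher genes were Smad6, Id1, Id3 and Eng and the lower ones the receptors Bmpr2 and Acvr2a and the effector Smad5. Id1 stood at 36.9 ± 3.55 CPM (SD, n = 3) against 23 ± 2.1 CPM in naive libraries, and Bmpr2 at 129 ± 32.9 against 239.6 ± 18.3 CPM. Bmp10 itself was at 1.82 CPM or less in all 6 libraries and was not tested. No gene of this list was called in any other exposure contrast.

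Of 10 other sinus node genes, 0 were called between the atria, 5 were higher and 2 lower in right atrium than in ventricle, and 3 were higher in left atrium than in ventricle, beside 31.5% and 19.2% of all genes called in either direction. The median log2 difference was 0.67 and 0.48, against 0.03 and 0.022 over all genes. The strongest calls in right atrium were the calcium channel Cacna1d (1.96 ± 0.327, adjusted p = 1.77e-05), Cpne5 (2.83 ± 0.56, adjusted p = 1.63e-04) and Rgs6 (0.83 ± 0.178, adjusted p = 3.49e-04), a regulator of muscarinic signalling in pacemaker cells. In left atrium they were Cacna1d (1.55 ± 0.329, adjusted p = 0.00164), Vsnl1 (2.89 ± 0.684, adjusted p = 0.00318) and Cpne5 (2.38 ± 0.57, adjusted p = 0.00345). Hcn4 was 0.19 ± 0.34 between the atria and 0.49 ± 0.343 between left atrium and ventricle, neither called. Over the 18 exposure contrasts 2 of 173 tests of these genes were called, both in high-dose female ventricle, 1 higher and 1 lower of 9 tested, where 23.7% of all genes were called. The higher gene was the connexin Gjc1, at 32.9 ± 2.72 against 26.8 ± 5.06 CPM (SD, n = 3, edgeR adjusted p = 0.0262).

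Of 7 genes of a list of working-myocardium and atrial genes, 0 were called between the atria and 4 were higher and 2 lower in each atrium than in ventricle, beside 31.5% of all genes called in right and 19.2% in left atrium. The median log2 difference was 1.48 and 1.19. The smallest adjusted p among the higher genes of both atria was that of Nppa, the atrial natriuretic peptide, at 4.03 ± 0.659 in right and 3.66 ± 0.676 in left atrium (edgeR adjusted p = 1.37e-05 and 5.03e-04). Tbx5 and the atrial connexin Gja5 followed, at 1.48 and 1.91 in right and 1.19 and 1.76 in left atrium. Among the lower genes was the ventricular connexin Gja1. Myl4 was 3.69 ± 0.887 and 3.47 ± 0.906 higher in right and left atrium than in ventricle. Nkx2-5, which SHOX2 opposes, was not called in any compartment contrast. In high-dose female ventricle, where 23.7% of all genes were called, Nkx2-5 rose to 82 ± 6.6 from 53.2 ± 2.17 CPM (SD, n = 3, edgeR adjusted p = 0.00147). Gja1 fell there, as did Shox2 from a low level, and a link between these changes was not tested.

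The genes whose levels ran most alike with each member over the 72 libraries, by Spearman's rho of log2 CPM, are given as a description without a test, since the libraries share compartment, exposure and handling. For Bmp10 they were Lingo1 (0.83), Tmem108 (0.82), Cxcl13 (0.81), Slc39a8 (0.81) and Kazald1 (0.81). For Shox2 they were Nfasc (0.87), Fam110c (0.84), Minar2 (0.83), Vsnl1 (0.83) and Scd2 (0.82). Vsnl1 is itself on the sinus node list. For Tbx3 they were Unc80 (0.73), Cacna1g (0.67), Slitrk5 (0.66), Cntn2 (0.66) and Hcn4 (0.65). Hcn4 and Cacna1g code for pacemaker channels, and Cntn2 is known as a marker of the conduction system. For Tbx18 they were Pde3b (0.77), Rtn4 (0.75), Acvr1c (0.75), Acaca (0.74) and Esr1 (0.74). Acaca makes malonyl-CoA for fatty acid synthesis, and Pde3b is a phosphodiesterase abundant in fat tissue. For Isl1 they were Chrna3 (0.81), Dpp6 (0.81), Pak3 (0.80), Tub (0.80) and Mmd2 (0.78). Chrna3, the ganglionic nicotinic receptor subunit, is on the list of cardiac ganglion genes. In libraries 1 to 48 alone, 12 of these 25 genes were again among the 5 most alike. The same measure was 0.69 between Bmp10 and Myl4.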

How the data were processed

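Poly-A mRNA, purified from total RNA of microdissected mouse hearts, was sequenced as single reads with a TruSeq kit. The authors deposited 1 table of read counts per gene, raw and not normalized, keyed by Entrez gene ID. By the submitters' notes the reads passed bcl2fastq and CASAVA 1.8, were mapped with TopHat to mm10, and the authors tested with DESeq. By the methods, reads over the coding region of each gene were counted with ShortRead and related Bioconductor packages. Strand handling, annotation release and TopHat version are not given in the sources used here. Every column was matched to its sample by name.

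Counts were analysed as deposited with R 4.3.3, edgeR 4.0.16 (filterByExpr, minimum count 10 and total 15, TMM, robust quasi-likelihood F test) and Benjamini-Hochberg adjustment at 0.05. Exposure contrasts were 18 fits of 3 against 3, and compartments were compared in 1 fit of all 72 libraries. SE is the log2 difference divided by the square root of F. Levels are CPM of library totals, from 11873417 to 28789382 counts. Symbols came from RefSeq for 24155 of 24237 IDs, and 4 of 5 members had a RefSeq promoter. No columns of the table were identical. The scripts were tested on simulated data. Alternatives were DESeq2 1.42.0, RLE or library-size scaling, no filter, a threshold of 0.0001, subsets of libraries and each library left out. Figures used Python 3.11.15 and matplotlib 3.10.9.

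The members and lists were chosen with earlier results of these data known. Named genes were the members, the 5 genes most alike to each by Spearman's rho, and from each list the 3 called genes of smallest adjusted p per compartment contrast, with Hcn4 and Myl4 always. Some genes of these lists are not reported here. Genes of the high-dose female ventricle contrast outside this rule were named after their values were seen.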

Additional observations from a re-analysis of the deposited data

How the results depend on the processing

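The count of 5 member calls over the 3 compartment contrasts was 5 to 8 when any 1 library was left out, reaching 8 without 53, 59 or 65. It was 1 at an adjusted p under 0.0001, 8 in libraries 1 to 48 and 8 without libraries that went against their labels. In libraries 49 to 72 and in naive libraries alone it was 0. Fewer libraries were fitted there, and the Shox2 and Isl1 differences from ventricle were smaller or turned in sign. The single exposure call became 0 at 0.0001 and without library 35 or 66, so it ranged from 0 to 1 on leaving out 1 library. It became 2 calls, of Tbx3 or Bmp10 and no longer Shox2, in libraries 1 to 48, in those without atrial libraries of low Myl4 (16 of 18 contrasts could be fitted), and without libraries against their labels. The 25 most similar genes became 12 shared in libraries 1 to 48. The interaction gave 0 calls in every setting run. Several differences changed sign, among them Bmp10 right minus left (1.87 over all libraries) and Isl1 right atrium minus ventricle (1.66). Right minus left, Shox2 was -0.16 in libraries 49 to 72, -0.22 in naive libraries, -0.25 without atrial libraries of low Myl4 and -0.089 without those against their labels, and -0.083 to 0.23 with 1 library left out. Tbx3 was 0.00181 in libraries 1 to 48, 0.00946 in those without low Myl4, 0.047 in libraries 49 to 72, 0.025 with library size alone and -0.087 to 0.051 with 1 left out. In libraries 49 to 72 Tbx18 was 0.13 and Bmp10 -0.59, and Isl1 right atrium minus ventricle -1.16 with no usable error. In naive libraries Tbx3 was -0.27 in left and -0.46 in right atrium against ventricle, and Tbx18 -0.12 in right atrium. The cause was not tested. No paired analysis was possible because each library number occurs in 1 group. With 3 libraries a group, an exact permutation test of 1 gene cannot give a p below 0.1. The levels of Isl1 and of ventricular Bmp10 are limited by depth.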

Other observations

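Markers of tissues next to the atria were high in single libraries, and Tbx18 and Isl1 were high in some of the same ones. The sum of 4 lung genes was 2127 CPM in library 15 (low-dose female right atrium). It was 751 CPM in library 21 (Ahr-/- male left atrium, Isl1 4.5 CPM). Nearly all of both sums was 1 gene, Scgb1a1 (2061 and 736 CPM), while Sftpc stood at 0.767 and 0.0505 CPM. Library 15 held the highest Tbx18 level (21.2 CPM) and 3.39 CPM of Isl1. The sum of 4 thymus genes was 396 CPM in library 64 (high-dose female left atrium, Bmp10 1134 CPM) and 48.9 CPM in library 26 (high-dose male left atrium, Tbx18 18.6 CPM). The sum of 4 adipocyte genes, Adipoq, Plin1, Cidec and Ucp1, was highest in libraries 64 and 15 (1020.2 and 1014 CPM) and had medians of 12.4, 32 and 1.82 CPM in right atrium, left atrium and ventricle. Their part in the members' levels was not tested.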
